A study of Mus musculus with 16 samples.

Results

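Cultured mouse spermatogonial cells in which Etv5 had been knocked down were set against cultures in which Pou3f1 had been knocked down. Of the 16 arrays of the study, 8 were used for the test: the 4 titled as Etv5 knockdown and the 4 titled as Pou3f1 knockdown, chosen by title alone. Both groups received small interfering RNA (siRNA) for 30 h, against the transcript of Etv5 in the first and of Pou3f1 in the second. All cultures came from Thy1+ germ cells of mice with a C57BL/6 background. They grew in serum-free medium with FGF2 (1 ng/ml), GDNF (20 ng/ml) and the GDNF co-receptor GFRA1 (150 ng/ml), so every group was under self-renewal signals. A knockdown is transient and partial, and the level left of each target is given below. Arrays of cultures with a negative control siRNA (n = 4) did not enter the test. Their values are quoted only to show where a level lies. Because both tested groups are knockdowns, a change of equal log2 size in both cancels in the difference, while one of unequal size remains in part. Whether replicates were separate cultures is not stated in the labels, and p-values therefore reflect only how far these samples spread, which may be technical. In RNA from whole cultures, fewer cells of a type and less RNA per cell cannot be told apart.

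ETV5 is an ETS-family transcription factor that acts downstream of GDNF and FGF signalling in the self-renewal of spermatogonial stem cells, the germ cells that keep up sperm production. POU3F1, also called OCT6, is a POU-domain transcription factor that GDNF also raises in these cells. The interferon pathway, which fills much of what follows, begins with sensors of viral nucleic acid. These induce interferons and chemokines, the interferon receptors signal through a complex that holds STAT2 and IRF9, and that complex binds interferon-stimulated response elements in the promoters of antiviral effector genes.

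Values are probe set intensities on a linear scale from Affymetrix arrays, on which the median probe set read 15.7 to 16.6. Each gene is represented by its brightest probe set, and intensities of different genes are not compared. Differences are Etv5 knockdown minus Pou3f1 knockdown on the scale log2(intensity + 1), which understates the change of dim genes. The mean correlation of each array with the other 7 lay between 0.9958 and 0.9969, and no array stood apart. The 8 spermatogonial markers examined, among them Zbtb16, Sall4, Gfra1, Ret, Ddx4 and Dazl, lay above the array median on all 8 arrays. All 31 fibroblast and feeder markers did so too. The number of arrays limits the precision.

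Of 11086 genes bright enough to be tested, 324 differed at an adjusted p under 0.05, or 2.92%. Higher in Etv5 knockdown were 213 genes (1.92% of those tested) and lower were 111 (1.00%). Most differences were small: 11 of the higher genes and 10 of the lower genes differed at least 2-fold, and over all tested genes the median absolute log2 difference was 0.065. Before adjustment 1805 genes had a p under 0.05. The 4 arrays of one group lay entirely beyond those of the other in 317 of the 324 called genes, against 10.2% of all tested genes, of which 5.71% had Etv5 knockdown above and 4.47% had it below. The higher side was led by genes of the interferon response, and the lower side by Etv5 itself and a group of stem cell maintenance genes.

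**Figure D1:**
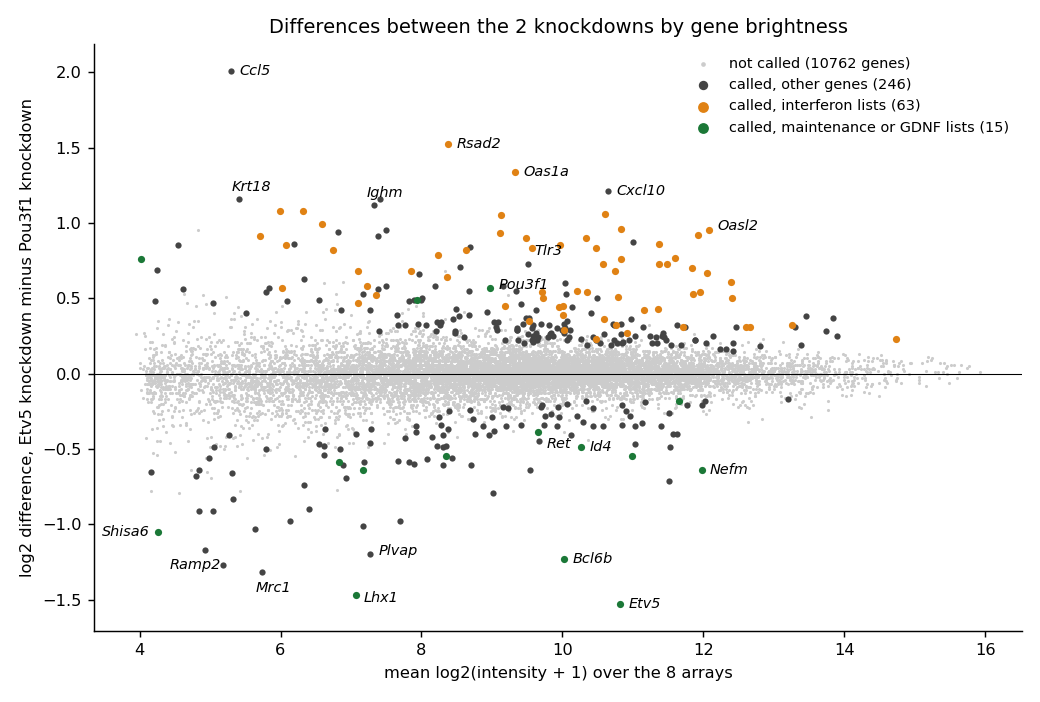
Each point is 1 of the 11086 tested genes, placed by its mean log2(intensity + 1) over the 8 arrays and its log2 difference, Etv5 knockdown minus Pou3f1 knockdown. Called genes of the interferon lists (63) all lie above 0, while the called genes of the maintenance or GDNF-responsive lists (15) reach down to Etv5 at -1.53.

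Both targets were lower in their own knockdown. Etv5 (Entrez gene 104156) read 912, 912, 1676 and 898 in Etv5 knockdown, against 3065, 2976, 3293 and 2945 in Pou3f1 knockdown. The 4 Etv5 knockdown arrays lay below all others, but replicate 3 kept more of the transcript than its group mates. Etv5 thus differed by -1.53 ± 0.17 on the log2 scale (adjusted p = 3.78e-04; here and in what follows ± gives the SE of a difference, with 4 arrays per group), and 2 further Etv5 probe sets differed by -1.80 and -1.79. Control arrays read 2882 to 3072 and overlapped Pou3f1 knockdown. Pou3f1 (Entrez gene 18991) read 657, 585, 620 and 581 in Etv5 knockdown, against 393, 354, 519 and 393 in Pou3f1 knockdown. Here replicate 3 of Pou3f1 knockdown was the array with the most Pou3f1, though still below every Etv5 knockdown array. The log2 difference was 0.57 ± 0.10 (adjusted p = 0.0103), with 644 to 692 on control arrays. A second Pou3f1 probe set differed by 0.78 and missed the threshold in a fit of all probe sets (adjusted p = 0.0685).

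In the ETS and POU families only the targets themselves passed the test. Of 16 tested ETS factor genes 1 was called lower, Etv5 (6.25%, against 1.00% of all tested genes). Of 5 tested POU factor genes 1 was called higher, Pou3f1 (20.0%, against 1.92%). Etv4, the PEA3-subfamily relative of Etv5, differed by 0.05 ± 0.11 (adjusted p = 0.88). Erg came nearest among the other ETS genes, at 0.40 ± 0.10 (adjusted p = 0.0511).

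Interferon genes made up 63 of the 213 genes on the higher side. Of 106 tested genes on 6 interferon lists (receptors and factors, nucleic acid sensors, OAS and RNase L genes, antiviral effectors, interferon-inducible GTPases, and MHC class I antigen presentation), 63 were called higher and 0 lower. That is 59.4% of these genes, against 1.92% of all tested genes called higher. Their median log2 difference was 0.40, against -0.000 over all tested genes, and 98 of the 106 were positive. Averaged over the 106 genes and set against each gene's mean over the 8 arrays, the Etv5 knockdown arrays read 0.15 to 0.29 on the log2 scale, the Pou3f1 knockdown arrays -0.31 to -0.11 and the control arrays 0.08 to 0.25. The control arrays thus lay near Etv5 knockdown. In 57 of the 63 called genes all Pou3f1 knockdown arrays lay below all control arrays, and in 7 of them all Etv5 knockdown arrays lay above all control arrays. Of the 723 tested genes of any list, these among them, Pou3f1 knockdown lay below control in 144 and Etv5 knockdown above it in 84. Genes called for a difference between the knockdowns lean toward such layouts, so the counts are a description. Of all 213 genes called higher, Pou3f1 knockdown lay below control in 127 with Etv5 knockdown overlapping control, 12 with it above and 7 with it below. Etv5 knockdown lay above control in 39 with Pou3f1 knockdown overlapping control, 12 with it below and 7 with it above.

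The promoters of several of these genes are shown, with those of Cxcl10 and Ddx60, which were called higher but are on no interferon list. All were chosen because they carry the letters of the interferon-stimulated response element and because their genes are described below. Each line holds 100 of the 250 bases before the start site, 5′ to 3′ on the gene's strand, from the RefSeq promoter table of GRCm38.p6. Counted from the start site, the lines run from -165 to -66 in Rsad2, -140 to -41 in Ifit1 and -250 to -151 in Cxcl10. In Oas1a, Ddx60, Igtp and Gbp3 they run from -100 to -1. Capitals mark matches to the element, taken as GAAA, any 2 bases and GAAA, or TTTC, any 2 bases and TTTC where the match is on the other strand. Rsad2 lies on the minus strand at chr12:26456518-26456617, Oas1a on the minus strand at chr5:120907526-120907625, and Cxcl10 on the minus strand at chr5:92349040-92349139. On the plus strand are Ifit1 at chr19:34640749-34640848, Ddx60 at chr8:61927987-61928086, Igtp at chr11:58199456-58199555 and Gbp3 at chr3:142559944-142560043. In Oas1a and Gbp3, 2 matches overlap and form 1 run of capitals.
Rsad2: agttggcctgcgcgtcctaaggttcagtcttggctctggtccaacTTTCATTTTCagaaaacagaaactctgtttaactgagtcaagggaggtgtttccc
Oas1a: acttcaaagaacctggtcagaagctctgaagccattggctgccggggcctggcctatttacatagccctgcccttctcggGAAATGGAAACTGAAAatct
Ifit1: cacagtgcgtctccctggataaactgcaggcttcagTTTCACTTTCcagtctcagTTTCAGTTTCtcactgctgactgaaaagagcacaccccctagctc
Cxcl10: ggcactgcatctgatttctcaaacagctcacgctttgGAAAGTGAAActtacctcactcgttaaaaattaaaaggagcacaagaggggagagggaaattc
Ddx60: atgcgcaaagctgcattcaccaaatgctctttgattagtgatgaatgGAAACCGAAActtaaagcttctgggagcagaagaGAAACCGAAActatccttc
Igtp: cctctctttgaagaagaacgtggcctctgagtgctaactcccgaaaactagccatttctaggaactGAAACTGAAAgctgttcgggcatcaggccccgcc
Gbp3: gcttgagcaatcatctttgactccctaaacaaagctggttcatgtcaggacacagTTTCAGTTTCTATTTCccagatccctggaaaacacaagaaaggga

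Sensors of viral nucleic acid come first in the pathway. Of 17 tested sensor genes 7 were called higher (41.2%, against 1.92% of all tested genes) and 0 lower, with a list median of 0.16. Tlr3, the endosomal receptor for double-stranded RNA, read 957, 1001, 940 and 995 in Etv5 knockdown, against 550, 496, 552 and 488 in Pou3f1 knockdown. The groups were far apart and tight, and the control arrays, at 920 to 1081, stood with Etv5 knockdown. Its log2 difference was 0.90 ± 0.06 (adjusted p = 3.63e-05), the smallest adjusted p of all tested genes. Ifih1, which encodes the cytosolic sensor MDA5, read 784, 971, 664 and 819 in Etv5 knockdown and 405, 448, 342 and 361 in Pou3f1 knockdown, a log2 difference of 1.05 ± 0.11 (adjusted p = 3.73e-04). The called sensors also held Zbp1 (0.82), Dhx58, which encodes the RIG-I-like protein LGP2 (0.82), Eif2ak2, which encodes the kinase PKR (0.50), Trim25, an activator of RIG-I (0.42), and Ddx58, which encodes RIG-I (0.39). The adaptors and kinases below the sensors were not called: the log2 difference was -0.18 for Mavs (adjusted p = 0.121), 0.16 for Sting1 (0.425), 0.07 for Tbk1 (0.557) and 0.02 for Ticam1 (0.908).

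Among 19 tested interferon receptors and signalling factors, 5 were called higher (26.3%, against 1.92% of all tested genes) and 0 lower. The list median was 0.09. Irf7, the transcription factor that amplifies interferon gene expression, read 119, 141, 124 and 157 in Etv5 knockdown, against 80.4, 68.0, 59.7 and 62.5 in Pou3f1 knockdown. No array of one group reached the other, and its log2 difference was 0.99 ± 0.11 (adjusted p = 5.50e-04). Control arrays read 93.1 to 118 and thus lay between the knockdowns. Stat2 differed by 0.45 ± 0.07 (adjusted p = 0.00674) and its DNA-binding partner Irf9 by 0.44 ± 0.08 (adjusted p = 0.0152). The call of Irf9 was lost without Etv5 knockdown replicate 1 or 4 or Pou3f1 knockdown replicate 2 (adjusted p 0.0552 to 0.0645). Irf1 differed by 0.27 (adjusted p = 0.0271). Usp18, which encodes the protease that removes ISG15 from proteins and dampens receptor signalling, read 1992, 2557, 2077 and 2462 in Etv5 knockdown and 1320, 1011, 923 and 1104 in Pou3f1 knockdown. All 4 Etv5 knockdown arrays were above all 4 Pou3f1 knockdown arrays, at a log2 difference of 1.06 ± 0.11 (adjusted p = 2.87e-04). The receptor genes themselves did not pass the test, with log2 differences of -0.09 for Ifnar1, 0.08 for Ifnar2, -0.02 for Ifngr1 and 0.16 for Ifngr2 (adjusted p 0.382, 0.565, 0.946 and 0.398).

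Downstream of the receptors, some but not all of the OAS genes encode enzymes that make 2′-5′ oligoadenylates and thereby activate RNase L. Of 6 tested genes of this list, with or without that activity, 5 were called higher (83.3%, against 1.92% of all tested genes). Oas1a read 927, 1222, 877 and 1114 in Etv5 knockdown, against 469, 450, 327 and 383 in Pou3f1 knockdown, and 743 to 1049 on control arrays. The lowest Etv5 knockdown array was well above the highest Pou3f1 knockdown array. Its log2 difference of 1.34 ± 0.13 (adjusted p = 1.74e-04) was the largest of the list. The log2 difference was 1.08 for Oasl1, 0.95 for Oasl2, 0.79 for Oas2 and 0.57 for Oas1b, and 0.33 for Oas1c, which was not called (adjusted p = 0.141). Oas1 genes are close copies of each other, so their probe sets may not fully separate them. The list median was 0.87.

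Antiviral effectors made up the longest of these lists. Of 38 tested genes 31 were called higher (81.6%, against 1.92% of all tested genes) and 0 lower, at a median log2 difference of 0.57. Rsad2, which encodes viperin, read 496, 679, 468 and 632 in Etv5 knockdown, against 228, 191, 183 and 181 in Pou3f1 knockdown. The knockdowns did not overlap, while control arrays, at 482 to 778, overlapped Etv5 knockdown. Rsad2 differed by 1.52 ± 0.12 (adjusted p = 8.56e-05), the largest on any interferon list. Ifit1, an RNA-binding inhibitor of viral translation, read 2425, 2555, 2404 and 2775 in Etv5 knockdown and 1615, 1194, 1213 and 1225 in Pou3f1 knockdown. Within Pou3f1 knockdown, replicate 1 was set apart from the other 3 arrays but stayed below all Etv5 knockdown arrays, and the log2 difference was 0.96 ± 0.09 (adjusted p = 1.74e-04). Its relatives Ifit3 and Ifit2 differed by 0.92 and 0.68 (adjusted p 8.56e-05 and 4.05e-05). The dynamin-like GTPase gene Mx1 was noisier, at 104, 132, 112 and 116 in Etv5 knockdown and 88.8, 29.9, 66.2 and 48.3 in Pou3f1 knockdown. Its groups did not overlap, yet its log2 difference of 1.08 ± 0.25 (adjusted p = 0.0414) lost the call without any array other than Pou3f1 knockdown replicate 1 or 2 (adjusted p 0.0694 to 0.125). Mx2 differed by 0.85 with an adjusted p of 7.02e-04. Other called effectors were Herc6 at 0.93, the nucleoside kinase gene Cmpk2 at 0.91, Parp14 at 0.83, the tetherin gene Bst2 at 0.73, Isg20 at 0.68 and Adar at 0.36. The smallest called difference was that of Ifitm3, whose product blocks virus entry, at 0.23.

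Interferon-inducible GTPases, which attack the vacuoles of intracellular microbes, were called higher in 9 of 10 tested genes (90.0%, against 1.92% of all tested genes). Their median was 0.73. Igtp read 1667, 1910, 1533 and 1998 in Etv5 knockdown, against 1098, 915, 837 and 961 in Pou3f1 knockdown, a log2 difference of 0.90 ± 0.09 (adjusted p = 3.25e-04). All 10 tested genes of this list had Etv5 knockdown arrays entirely above Pou3f1 knockdown arrays, against 5.71% of all tested genes. Iigp1 differed by 0.86, and among the guanylate-binding proteins Gbp7 differed by 0.83, Gbp3 by 0.77, Gbp6 by 0.54 and Gbp2 by 0.50. For MHC class I antigen presentation, 7 of 17 tested genes were called higher (41.2%, against 1.92% of all tested genes) and 0 lower, at a median of 0.31. Tap1, a subunit of the peptide transporter, read 275, 283, 276 and 342 in Etv5 knockdown, against 231, 185, 152 and 169 in Pou3f1 knockdown, a log2 difference of 0.68 ± 0.12 (adjusted p = 0.00966). The immunoproteasome genes Psmb8 and Psmb10 differed by 0.47 and 0.43, the tapasin gene Tapbp by 0.32, the class I heavy chain genes H2-K1 and H2-D1 by 0.31 each, and the peptide-trimming Erap1 by 0.23. Psmb8 lost its call without any array other than Etv5 knockdown replicate 3 or Pou3f1 knockdown replicate 1 or 2 (adjusted p 0.0539 to 0.0869).

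**Figure D2:**
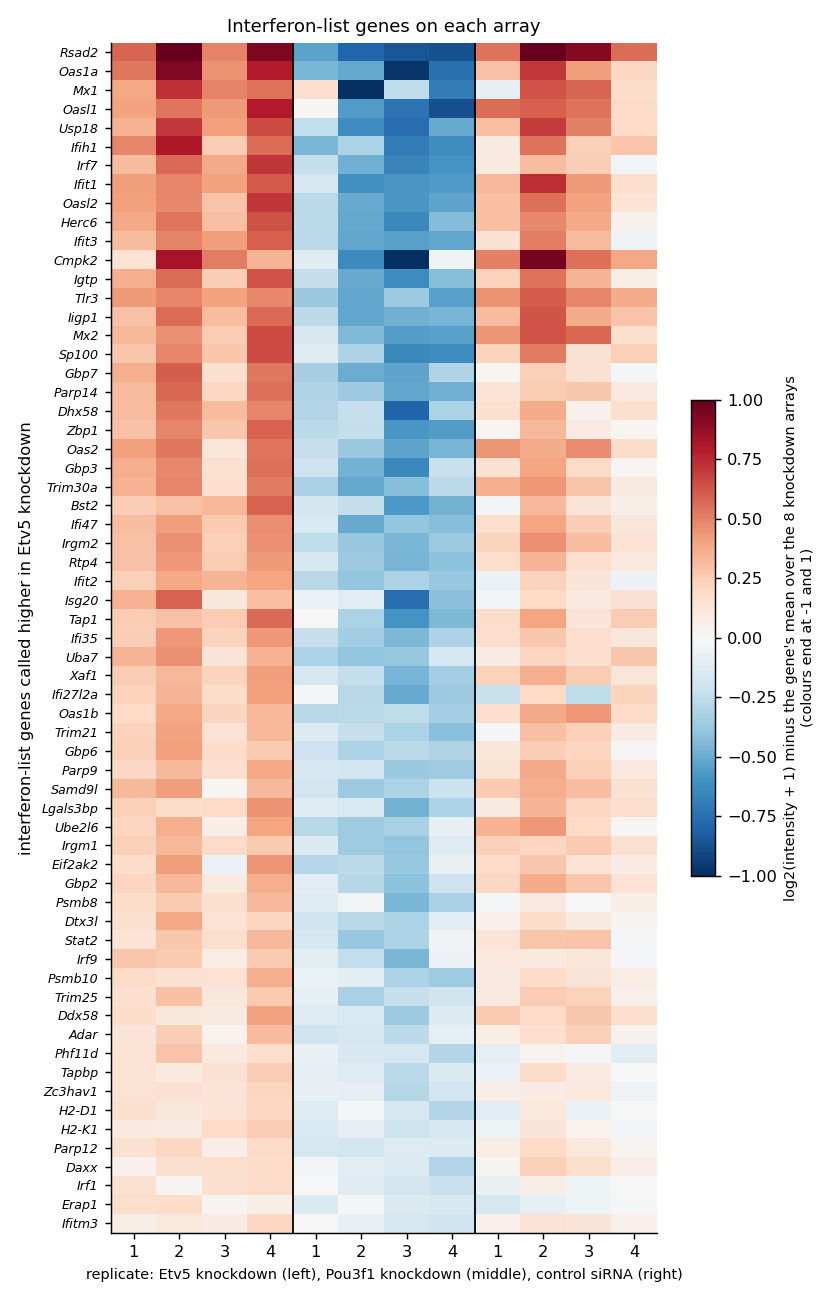
Rows are the 63 called genes of the interferon lists and columns the arrays of Etv5 knockdown, Pou3f1 knockdown and control siRNA, with colour giving log2(intensity + 1) minus the gene's mean over the 8 knockdown arrays. Etv5 knockdown columns are almost all red, Pou3f1 knockdown columns almost all blue, and control columns mostly red.

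Chemokine genes held the largest difference of all tested genes. Of 19 tested on that list 3 were called, all higher (15.8%, against 1.92% of all tested genes). Ccl5, a chemokine of the antiviral response, read 75.2, 78.6, 69.7 and 89.2 in Etv5 knockdown, against 24.4, 17, 14.4 and 19.6 in Pou3f1 knockdown and 69.2 to 90.0 on control arrays. Pou3f1 knockdown arrays were near the array median, where the lower end of the signal compresses differences, while Etv5 knockdown and control arrays overlapped. Ccl5 thus differed by 2.01 ± 0.14 on the log2 scale (adjusted p = 4.05e-05). Cxcl10 read 2083, 2751, 2455 and 2534 in Etv5 knockdown, against 1433, 782, 1043 and 1063 in Pou3f1 knockdown, at 1.21 ± 0.15 (adjusted p = 8.44e-04). Again no array of one group reached the other. Cxcl11, which binds the same receptor as Cxcl10, differed by 0.47 (adjusted p = 0.0279), a call that was kept without Etv5 knockdown replicate 1 or Pou3f1 knockdown replicate 4 and lost without any other array (adjusted p 0.0577 to 0.0977). Inflammatory chemokines that NF-kB controls did not pass, with log2 differences of 0.14 for Ccl2, 0.09 for Cxcl1 and -0.13 for Cxcl5 (adjusted p 0.163, 0.225 and 0.264). Of 17 tested NF-kB target genes 1 was called higher (5.88%, against 1.92% of all tested genes). It was the adhesion molecule gene Vcam1, at 0.31 (adjusted p = 0.00101).

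Some genes called higher outside the interferon lists are also known to be induced by interferon; those given here were chosen after their values were seen, so their number is no measure of the rest. Ddx60, a helicase of antiviral defence, read 256, 318, 194 and 260 in Etv5 knockdown, against 132, 112, 98.7 and 112 in Pou3f1 knockdown, without overlap, at 1.16 ± 0.13 (adjusted p = 6.71e-04). Rnf213 differed by 0.87, Helz2 by 0.58, the checkpoint ligand gene Cd274 by 0.53, Nmi by 0.43 and Ly6e by 0.38. Most Trim genes encode ubiquitin ligases. Of 33 tested Trim genes outside the interferon lists, 5 were called higher (against 1.92% of all tested genes) and 0 lower, with a median of 0.04. Those called were Trim12a at 0.95, Trim34a at 0.84, Trim12c at 0.73, Trim30d at 0.36 and Trim26 at 0.32.

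Promoter windows of 300 bases (250 before and 50 after the start site) were in the RefSeq table for 9030 of the 11086 tested genes. Among genes called higher, 35 of 172 windows held the response element letters on either strand, or 20.3%, against 1 of 77 windows of genes called lower (1.3%, Eomes) and 323 of 9030 windows of all tested genes (3.58%). Interferon-list genes called higher had the letters in 19 of 50 windows (38%), those not called in 8 of 35 (22.9%), and genes called higher on no interferon list in 16 of 122 (13.1%). These 16 included Cxcl10, Ddx60, Trim12a, Trim12c and Trim34a. The ETS letters CCGGAAGT or ACTTCCGG were in 6 of 172 windows of higher genes (3.49%), 2 of 77 of lower genes (2.6%) and 854 of 9030 of all tested genes (9.46%). The octamer ATGCAAAT or ATTTGCAT, bound by POU factors, was in 2 of 172 windows of higher genes (1.16%), 2 of 77 of lower genes (2.6%) and 137 of 9030 of all tested genes (1.52%). Letters in a window do not show that a factor binds there, and their absence says nothing about sites elsewhere.

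**Figure D3:**
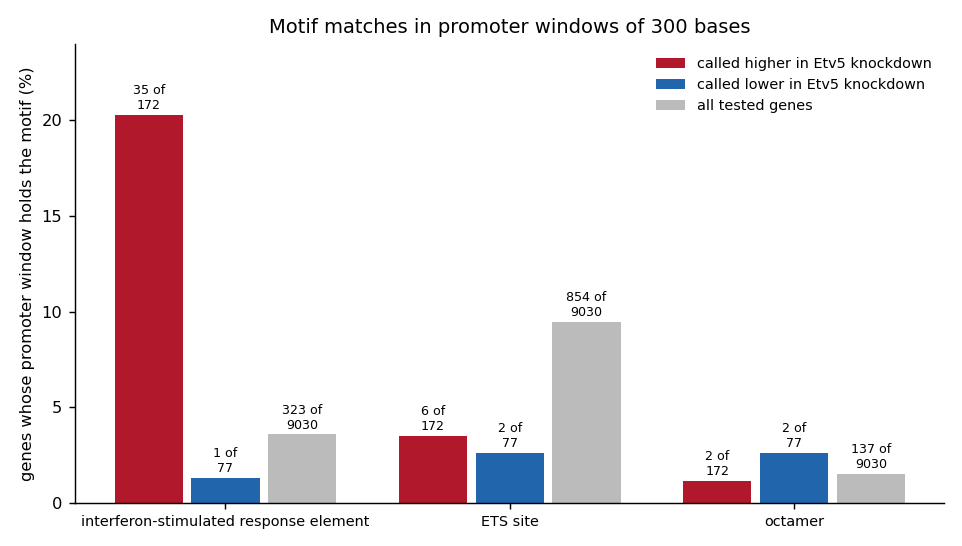
Bars give the percentage of promoter windows that hold the letters of each motif on either strand, for genes called higher in Etv5 knockdown, genes called lower and all tested genes, with the counts above each bar. The response element reaches 20.3% in higher genes, and the ETS and octamer letters stay at 3.49% or less in both called sets.

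On the lower side, maintenance regulators of stem cells and GDNF-responsive genes stood out by count. Of 28 tested maintenance regulators 8 were called lower (28.6%, against 1.00% of all tested genes) and 2 higher, with a median log2 difference of -0.14. Without Shisa6, which passed the brightness filter through 1 group only, 7 of 27 were lower and the median was -0.11. Of 21 tested GDNF-responsive genes 9 were called lower (42.9%) and 2 higher, with a median of -0.44. Without Mycl, which passed likewise, 9 of 20 were lower, 1 was higher and the median was -0.47. Both lists hold the targets Etv5, called lower, and Pou3f1, called higher, and the calls of these targets follow from the siRNA used. The counts, shares, medians and array means of this paragraph include both targets. The lists share other genes too. Averaged over the GDNF-responsive genes, the Etv5 knockdown arrays read -0.28 to -0.00 on the log2 scale, the Pou3f1 knockdown arrays 0.07 to 0.27 and the control arrays 0.13 to 0.19, each relative to the gene's mean over the 8 knockdown arrays. The control arrays thus lay near Pou3f1 knockdown. In 7 of the 9 genes called lower, Etv5 among them, all Etv5 knockdown arrays lay below all control arrays. The same held in 76 of the 723 tested genes of any list. This layout was common on the lower side as a whole. Of all 111 genes called lower it held in 61 whose Pou3f1 knockdown arrays overlapped control, 15 with them above and 1 with them below.

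Bcl6b, a transcriptional repressor required for stem cell maintenance, read 620, 618, 899 and 608 in Etv5 knockdown, against 1658, 1567, 1714 and 1421 in Pou3f1 knockdown and 1341 to 1526 on control arrays. Etv5 knockdown arrays lay far below both other groups, and replicate 3 was the highest of them, as it was for Etv5. The log2 difference was -1.23 ± 0.11 (adjusted p = 1.74e-04). Lhx1, a LIM-homeobox factor of stem cells, read 70.9, 80.7, 109 and 63.8 in Etv5 knockdown, against 213, 244, 240 and 194 in Pou3f1 knockdown. All Etv5 knockdown arrays were below all Pou3f1 knockdown arrays, at a log2 difference of -1.47 ± 0.14 (adjusted p = 2.56e-04), and a second Lhx1 probe set differed by -1.25. Shisa6, a marker of a stem cell subset, read 10.6, 14.2, 15.6 and 10 in Etv5 knockdown, against 25.5, 27.7, 26 and 27.7 in Pou3f1 knockdown and 20.0 to 22 on control arrays. Its Etv5 knockdown arrays all lay below the array median, so that it passed the brightness filter only through the group in which it is high. Its log2 difference of -1.05 is a description, and its call supports nothing. Eomes, a T-box factor that marks the same subset, read 76.7, 87.5, 110 and 97.5 in Etv5 knockdown, against 139, 139, 152 and 127 in Pou3f1 knockdown, at -0.59 ± 0.11 (adjusted p = 0.0127). Its groups did not overlap, though the control arrays spanned 102 to 144. Id4, an inhibitor of differentiation that marks stem cells, read 1040, 993, 1179 and 940 in Etv5 knockdown, against 1591, 1440, 1512 and 1303 in Pou3f1 knockdown, without overlap, at -0.49 ± 0.08 (adjusted p = 0.00419). Cxcr4, the receptor for the niche chemokine CXCL12, missed the threshold at -0.77 ± 0.19 (adjusted p = 0.0599).

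Ret, which encodes the signalling receptor for GDNF, was called lower although its Etv5 knockdown arrays lay at the control level. It read 714, 707, 751 and 647 in Etv5 knockdown, against 958, 870, 941 and 932 in Pou3f1 knockdown and 691 to 727 on control arrays. Etv5 knockdown and control overlapped, while Pou3f1 knockdown was above both, and the log2 difference was -0.39 ± 0.06 (adjusted p = 0.0024). The co-receptor gene Gfra1 differed by -0.24 (adjusted p = 0.146). Across 20 tested receptor genes of GDNF, FGF and related factors, 1 was called lower, Ret, and 2 higher, Met at 0.39 and Tgfbr1 at 0.26. The Tgfbr1 call was kept without Etv5 knockdown replicate 3 or Pou3f1 knockdown replicate 4 and lost without any other array (adjusted p 0.0641 to 0.0978). Fgfr2 and Kit differed by 0.06 and 0.08 and did not pass (adjusted p 0.8 and 0.523).

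Feedback and early response genes of the same pathways were mixed. Egr2, a zinc finger factor of the immediate early response, read 1556, 1839, 1810 and 1524 in Etv5 knockdown, against 2347, 2360, 2590 and 2527 in Pou3f1 knockdown and 2082 to 2272 on control arrays. The knockdowns lay on either side of control, at a log2 difference of -0.55 ± 0.07 (adjusted p = 8.18e-04). Its relative Egr1 was called in the other direction, at 0.32 ± 0.06 (adjusted p = 0.013), with 3667, 3462, 3567 and 3430 in Etv5 knockdown and 2965, 2876, 3023 and 2474 in Pou3f1 knockdown. That call was lost without Etv5 knockdown replicate 1 (adjusted p = 0.0548). Egr3 differed by 0.01 and Fos by 0.07 and neither passed (adjusted p 0.959 and 0.615). Of 20 tested feedback genes of FGF and MAPK signalling 1 was called, and it was lower (5.0%, against 1.00% of all tested genes). It was the Sprouty inhibitor gene Spry4, with 242, 327, 265 and 246 in Etv5 knockdown and 357, 384, 426 and 411 in Pou3f1 knockdown, at -0.55 ± 0.10 (adjusted p = 0.00942). The phosphatase gene Dusp6 stood at -0.44 and missed the threshold (adjusted p = 0.097). Of the other GDNF-responsive genes, the kinase gene Tec differed by -0.64 (adjusted p = 0.0181).

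Of 12 tested neural genes 3 were called lower (25.0%, against 1.00% of all tested genes) and 1 higher (8.33%, against 1.92%). Of those called lower, Nefm and Egr2 are also among the GDNF-responsive genes counted above. Nefm, a neurofilament subunit gene, read 2992, 2991, 4102 and 2923 in Etv5 knockdown, against 5308, 4988, 5314 and 4560 in Pou3f1 knockdown and 4635 to 4991 on control arrays. Etv5 knockdown replicate 3 was closer to Pou3f1 knockdown than its group mates but still below it, and the log2 difference was -0.64 ± 0.10 (adjusted p = 0.00375). Crmp1, a collapsin response mediator gene, read 56.8, 40.2, 63.1 and 40.7 in Etv5 knockdown, against 123, 96.2, 97.3 and 80.3 in Pou3f1 knockdown, without overlap, at -0.98 ± 0.16 (adjusted p = 0.00683). Sox3, an HMG-box factor of undifferentiated spermatogonia and neural progenitors, was the neural gene called higher, at 0.49 ± 0.07 (adjusted p = 0.0029). Both knockdowns lay above control for it, with 297, 312, 267 and 283 in Etv5 knockdown, 196, 194, 220 and 215 in Pou3f1 knockdown and 160 to 188 on control arrays.

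**Figure D4:**
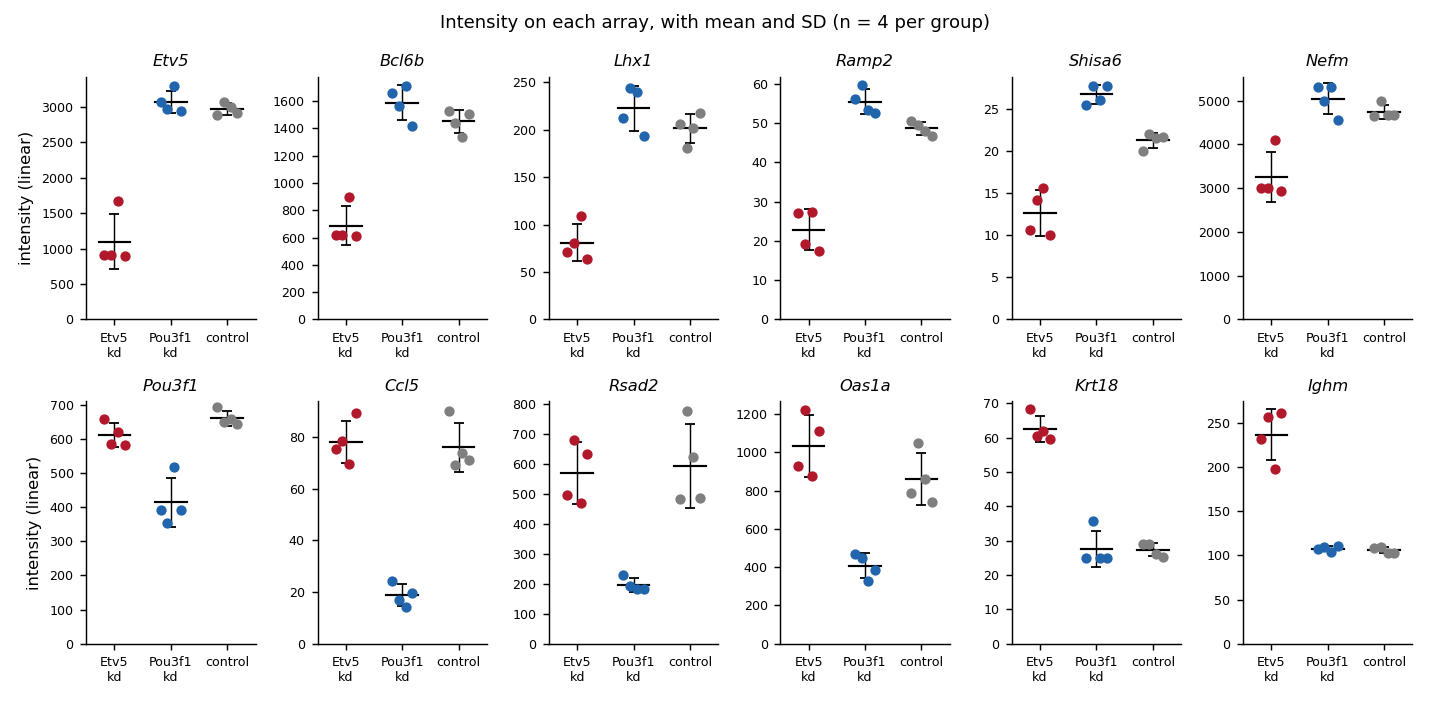
Each panel gives the linear intensity of 1 gene on the arrays of Etv5 knockdown, Pou3f1 knockdown and control siRNA (points), with the mean (bar) and SD (whiskers, n = 4 per group) and an axis from 0. In the upper row Etv5 knockdown lies below both other groups for Etv5, Bcl6b, Lhx1, Ramp2, Shisa6 and Nefm, and in the lower row Pou3f1 knockdown lies alone below for Pou3f1, Ccl5, Rsad2 and Oas1a, while Etv5 knockdown lies alone above for Krt18 and Ighm.

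Of 9 tested endothelial markers 3 were called lower (33.3%, against 1.00% of all tested genes) and 0 higher, with a median of -0.23. These were Mrc1, Ramp2 and Plvap, while Erg stood on the other side at 0.40 without a call. Of 12 tested macrophage and leukocyte markers 1 was called lower, Mrc1 again, and 1 higher, Ighm at 1.12. Each is 8.33% of the list, against 1.00% of all tested genes called lower and 1.92% called higher. The list median was -0.07, and Cd68 at 0.44 and Ptprc at 0.22 were not called (adjusted p 0.177 and 0.329). Plvap, the protein of endothelial diaphragms, read 83.6, 87.2, 174 and 80.8 in Etv5 knockdown, against 235, 261, 246 and 194 in Pou3f1 knockdown and 238 to 265 on control arrays. Etv5 knockdown replicate 3 was again the highest of its group, though below every Pou3f1 knockdown array, and the log2 difference was -1.20 ± 0.21 (adjusted p = 0.0095). Ramp2, a partner of the adrenomedullin receptor, read 27.2, 19.2, 27.4 and 17.5 in Etv5 knockdown, against 56.2, 59.6, 53.4 and 52.6 in Pou3f1 knockdown, a separation without overlap at -1.27 ± 0.14 (adjusted p = 3.78e-04). Mrc1, the mannose receptor of macrophages and some endothelia, read 27.9, 22.6, 45.3 and 40.1 in Etv5 knockdown, against 111, 58.5, 95.1 and 78.9 in Pou3f1 knockdown. Its groups did not overlap, and the log2 difference was -1.32 ± 0.22 (adjusted p = 0.00823). Cd93, which is on neither list, differed by -1.01 ± 0.13 (adjusted p = 0.00158), a call lost without Pou3f1 knockdown replicate 1 or 3 (adjusted p 0.0715 and 0.0812). Of the 9 tested endothelial markers 6 were not called. Egfl7 read 316 to 374 in Etv5 knockdown and 347 to 401 in Pou3f1 knockdown. Ecscr read 132 to 207 and 154 to 182 in these groups, and Eng 57.2 to 58.1 and 55.4 to 59.0. Beside Erg, the markers without a call also held Flt1 at -0.29 and Lyve1 at -0.23. The defining endothelial genes Pecam1 and Cdh5 were near the lower end of the signal in every group. Pecam1 read 6.14 to 6.55 in Etv5 knockdown and 6.41 to 7.03 in Pou3f1 knockdown, and Cdh5 read 4.90 to 5.13 and 4.95 to 5.23 in these groups. Of 27 endothelial markers on the array, 17 were below the median on all 8 arrays, and the summed intensity of all 27 was 1113 to 1281 in Etv5 knockdown and 1288 to 1407 in Pou3f1 knockdown. Without Plvap the sum was 1026 to 1107 in Etv5 knockdown and 1054 to 1166 in Pou3f1 knockdown, and the groups overlapped.

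Other large differences on the lower side came from genes on no list or on short ones. Hs3st3b1, a heparan sulfate sulfotransferase gene, read 125, 133, 197 and 143 in Etv5 knockdown, against 288, 329, 301 and 251 in Pou3f1 knockdown, without overlap, at -0.98 ± 0.13 (adjusted p = 0.00177). Cyp2u1, a cytochrome P450 gene, differed by -1.17 ± 0.22 (adjusted p = 0.0164), with 27.7, 14.5, 24.7 and 13.7 in Etv5 knockdown and 52.1, 56.1, 37.2 and 36.1 in Pou3f1 knockdown. The death receptor gene Tnfrsf25 differed by -1.03 ± 0.20 (adjusted p = 0.0189), with 22.1, 52.5, 34.6 and 31.9 in Etv5 knockdown and 74.5, 78.6, 70.2 and 58.4 in Pou3f1 knockdown. Both lie near the lower end of the signal. Their calls were lost without some single arrays: for Cyp2u1 without Etv5 knockdown replicate 4 or Pou3f1 knockdown replicate 1 or 2 (adjusted p 0.0569 to 0.062), and for Tnfrsf25 without Etv5 knockdown replicate 4 or Pou3f1 knockdown replicate 1, 2 or 3 (0.0573 to 0.0738). Further genes called lower were picked after their values were seen and form no list. Marveld2, which encodes tricellulin, differed by -0.79, the tight junction gene Ocln by -0.57, the membrane protease gene St14 by -0.49 and the splicing factor gene Esrp1 by -0.40. The transcription factor genes Foxc2, Dmrt2 and Tox3 differed by -0.64, -0.83 and -0.69. Mcam, an adhesion gene of the spermatogonial surface list, differed by -0.47 ± 0.06 (adjusted p = 7.46e-04), with 1761, 1670, 1987 and 1686 in Etv5 knockdown and 2521, 2380, 2513 and 2388 in Pou3f1 knockdown. On that list 2 of 22 tested genes were lower, Mcam and Ret (9.09%, against 1.00% of all tested genes). The 1 called higher was Vcam1 (4.55%, against 1.92%).

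Of 21 tested genes of spermatogonial differentiation, 4 were called higher (19.0%, against 1.92% of all tested genes), 0 lower and 17 not called, with a median of 0.12. Of the 4 calls, 2 held without each single array in turn. Sohlh1, a transcription factor that drives spermatogonia into differentiation, read 843, 725, 767 and 818 in Etv5 knockdown, against 599, 529, 514 and 508 in Pou3f1 knockdown and 481 to 533 on control arrays. Etv5 knockdown stood alone above the other 2 groups, which overlapped. Sohlh1 differed by 0.55 ± 0.07 (adjusted p = 8.87e-04). Asb9 followed the same order, with 888, 877, 814 and 850 in Etv5 knockdown, 703, 705, 706 and 633 in Pou3f1 knockdown and 636 to 717 on control arrays, at 0.32 ± 0.05 (adjusted p = 0.00708). Stra8, the retinoic acid-responsive gatekeeper of meiosis, differed by 0.37 ± 0.08 (adjusted p = 0.0303) and the uridine phosphorylase gene Upp1 by 0.42 ± 0.09 (adjusted p = 0.0294). Both calls depended on single arrays. Stra8 kept its call without Etv5 knockdown replicate 3 or Pou3f1 knockdown replicate 1 or 4 and lost it otherwise (adjusted p 0.0506 to 0.106), and Upp1 kept it without Etv5 knockdown replicate 4 or Pou3f1 knockdown replicate 2 and lost it otherwise (0.0558 to 0.0902). Kit, the receptor of differentiating spermatogonia, differed by 0.08 and Sohlh2 by -0.06, and neither passed (adjusted p 0.523 and 0.758).

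Some of the largest differences on the higher side were not interferon genes. Krt18, a simple epithelial keratin gene, read 68.2, 60.5, 61.8 and 59.5 in Etv5 knockdown, against 24.9, 35.6, 25 and 25 in Pou3f1 knockdown and 25.3 to 29.0 on control arrays. Etv5 knockdown was alone above, at a log2 difference of 1.16 ± 0.12 (adjusted p = 2.68e-04). Ighm, the immunoglobulin mu heavy chain gene, read 232, 256, 197 and 261 in Etv5 knockdown, against 107, 109, 104 and 110 in Pou3f1 knockdown and 103 to 109 on control arrays. Here too Etv5 knockdown was alone above, at 1.12 ± 0.09 (adjusted p = 8.56e-05), but of 2 further Ighm probe sets one differed by 0.96 and the other by -0.02. Vegfb, a growth factor gene of the VEGF family, had the reverse layout: it read 1292, 1201, 1301 and 1369 in Etv5 knockdown, against 871, 815, 878 and 834 in Pou3f1 knockdown and 1200 to 1266 on control arrays. Pou3f1 knockdown was alone below, at 0.60 ± 0.05 (adjusted p = 1.16e-04). Hmga2, an architectural chromatin factor gene, was laid out likewise at 0.50 ± 0.05 (adjusted p = 3.78e-04), with 1770, 1811, 1658 and 1624 in Etv5 knockdown, 1248, 1132, 1293 and 1190 in Pou3f1 knockdown and 1550 to 1843 on control arrays. Mycl read 20.3, 16.6, 15.9 and 30.9 in Etv5 knockdown, against 11.3, 11.2, 13.4 and 10.2 in Pou3f1 knockdown, a log2 difference of 0.76. All its Pou3f1 knockdown arrays lay below the array median, so it too passed the brightness filter only through the group in which it is high, and the difference is a description. Of the 324 called genes 4 were of this kind, Akr1c18 and Rasgrf1 beside Mycl and Shisa6, which leaves 210 higher and 110 lower.

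Called genes can be sorted by which knockdown departed from control, as a description without a test. Their selection by a difference between the knockdowns favours such layouts, and the shares over all tested genes are not given here. Of the 213 genes called higher, 127 had Pou3f1 knockdown arrays all below control and Etv5 knockdown arrays that overlapped it, 39 had Etv5 knockdown arrays all above control and Pou3f1 knockdown arrays that overlapped it, and in 12 each knockdown lay on its own side. Of the 111 genes called lower, 61 had Etv5 knockdown arrays all below control and Pou3f1 knockdown arrays that overlapped it, 14 had Pou3f1 knockdown arrays all above and Etv5 knockdown arrays that overlapped, and in 15 each lay on its own side. In this sorting the higher side thus mostly shows low levels in Pou3f1 knockdown, and the lower side mostly low levels in Etv5 knockdown.

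Lists of general cell functions held few calls or none. There were 0 called of 21 G1 cyclins and kinases, 24 S phase genes, 24 genes of the G2 and M phases, 29 genes of the unfolded protein and amino acid stress responses, 33 oxidative phosphorylation genes, 22 cytoplasmic ribosomal protein genes and 11 DNA methylation enzymes, with list medians between -0.08 and 0.03. At 2.92% called among all tested genes, lists of this size hold few calls in any case. The 28 p53 and apoptosis genes held 1 call in each direction (Ccng1 higher at 0.25, Pmaip1 lower at -0.34). Single calls came from 24 glycolysis and hypoxia genes (Bnip3, 0.19), 29 cholesterol and fatty acid synthesis genes (Stard4, -0.18) and 24 FoxO and PI3K target genes (Pik3cd, -0.59). The same held for 23 meiosis genes (Rec8, 0.32) and 24 germ cell identity and piRNA genes (Tdrd7, 0.24). The axon guidance list gave Slit2 (0.25) and Efna5 (0.22) higher and Robo1, the receptor of SLIT2, lower (-0.35, adjusted p = 0.00697), of 40 tested. Of 22 Id and TGF-beta response genes, Id4, Smad6 (-0.54) and Tgfb1 (-0.38) were lower, and of 13 TNF receptor superfamily genes Tnfrsf12a was higher (0.27) beside Tnfrsf25. Apart from Robo1 and Id4, each of the genes named for these lists lost its call without at least 1 array. Rec8 lost it without 1, Etv5 knockdown replicate 4, Bnip3 without 4 of 8, Efna5 and Tdrd7 without 5, Ccng1, Pik3cd, Pmaip1, Slit2, Smad6 and Tnfrsf12a without 6, Tgfb1 without 7 and Stard4 without any of the 8, with adjusted p between 0.0507 and 0.155.

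**Figure D5:**
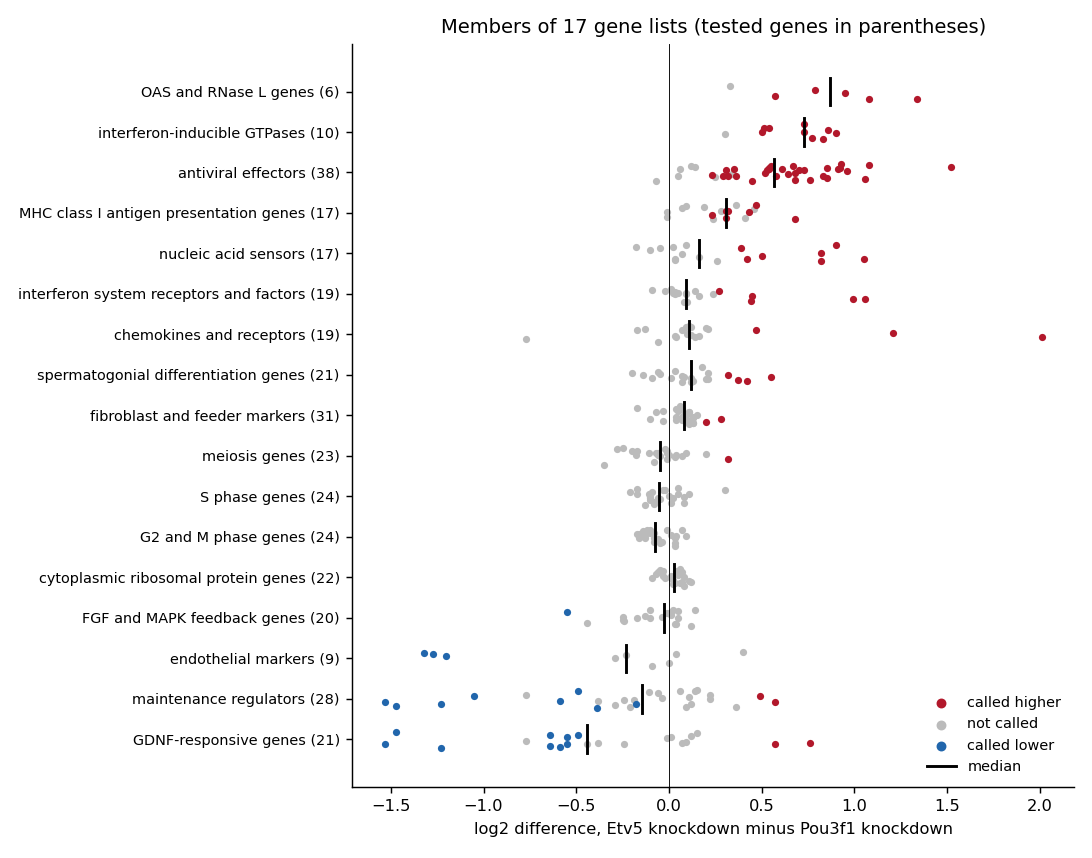
Each point is a tested gene of 1 of 17 lists, placed by its log2 difference, Etv5 knockdown minus Pou3f1 knockdown, with the list median as a bar and the number of tested genes in parentheses. Interferon lists lie to the right with medians up to 0.87, the GDNF-responsive list to the left at -0.44, and the cell cycle and ribosomal lists near 0. Shisa6 and Mycl, drawn as called, passed the brightness filter through 1 group only.

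Sums over markers of cells that the cultures could hold beside germ cells differed between the knockdowns for some lists. The summed intensity of the 31 fibroblast and feeder markers was 316547 to 335036 in Etv5 knockdown, 308241 to 315447 in Pou3f1 knockdown and 313250 to 315664 in control. The knockdowns thus did not overlap, but the gap was narrow and came from Timp2. That gene read 13999 to 15620 in Etv5 knockdown and 11882 to 12886 in Pou3f1 knockdown, and without it the sums overlap. Of the 31 markers 2 were called higher (6.45%, against 1.92% of all tested genes), Timp2 at 0.28 and Col6a2 at 0.20. The list median was 0.08. The 17 Sertoli cell markers summed to 11111 to 11851 in Etv5 knockdown and 12084 to 12337 in Pou3f1 knockdown. Without Tjp1, a junction gene of many cell types that read 5736 to 6431 in Etv5 knockdown and 6546 to 7043 in Pou3f1 knockdown, the other 16 summed to 5187 to 5454 in Etv5 knockdown and 5137 to 5538 in Pou3f1 knockdown, and the groups overlapped. Of the 17 markers 12 were below the median on all 8 arrays, 5 were tested and 0 called, and Gata4 and Wt1 were below the array median on all 8 arrays. The 23 macrophage and leukocyte markers summed to 1384 to 1532 in Etv5 knockdown and 1324 to 1527 in Pou3f1 knockdown, with Adgre1 at 5.31 to 5.45 and 5.31 to 5.70 in these groups. The part of these cells in the interferon and other differences was not tested.

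Single replicates stood out within both groups. Etv5 knockdown replicate 3, which kept the most Etv5, was the highest array of its group in 71 of the 110 other genes called lower (64.5%, against 32.3% of all tested genes). It was also the lowest of its group in 43 of the 63 called interferon genes (68.3%, against 21.6%). Among the Pou3f1 knockdown arrays, replicate 3, which kept the most Pou3f1, was the lowest in 38 of the 63 interferon genes (60.3%, against 25.4%), and replicate 1 was the highest in 42 (66.7%, against 37.0%). Without Etv5 knockdown replicate 3, 366 genes were called, 228 higher and 138 lower. Leaving out other arrays lowered the count to between 156 and 258, so that the number of calls leaned on single arrays, and Etv5 knockdown replicates 1 and 4 (174 and 156 without each) and Pou3f1 knockdown replicates 2 and 3 (185 and 204) moved it the most. Called interferon genes numbered 53 to 63 over all 8 of these fits, and of the 73 genes named by rule 49 kept their call in each such fit in which they were tested.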

How the data were processed

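The authors hybridised RNA to Affymetrix mouse arrays with a biotin label, after DNase treatment and poly(T) priming, per the labels' protocols. Deposited are intensity values per probe set on a linear scale, from 1.66 to 69412 on the 8 arrays. Partek 6.4, GCRMA, MAS5 and Affymetrix Expression Console 1.1 are named, without role or order, per the submitters' processing notes. Which of them gave the deposited intensity values, how arrays were normalized and the siRNA sequences are not given in the sources used here.

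The platform annotation named 1 gene for 34945 of 45037 probe sets, several for 932 and none for 9160, and only the 34945 were used. The gene identifiers of 204 were not matched in the RefSeq table of GRCm38.p6 and kept the annotation's symbol. For each of 18193 genes the probe set of highest mean log2 intensity on the 8 arrays was taken. Genes above the array median on at least 4 of the 8 arrays were tested (11086). Values were analysed as log2(intensity + 1). The test used limma 3.58.1 in R 4.3.3 (lmFit and eBayes with an intensity trend, two-sided). P-values were adjusted by the Benjamini-Hochberg method over the 11086 genes and called at an adjusted p under 0.05. The script was tested on simulated data. No pair of arrays held identical values. Replicate numbers were not taken to pair the samples: deviations of arrays with the same number correlated at 0.07, -0.02, 0.13 and 0.07. Such weak correlations cannot exclude that arrays of the same number were handled together. No batch or date was given.

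The comparison and the gene lists were chosen with earlier results of these data known. By rule, the text names both targets, the 12 largest called differences in each direction without overlap of the arrays, and up to 4 called genes of largest difference per list, without clone names. Genes named beyond it were chosen after their values were seen. Alternatives were another centring, quantile normalization, pseudocount, filter, probe set choice, variance model, fold threshold, motif or window, array weights, fits with the other groups, the replicate number as a block and leaving out single arrays. Python 3.11.15 and matplotlib 3.10.9 made the figures.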

Additional observations from a re-analysis of the deposited data

Results flagged for a closer look

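Among the 4 arrays of each knockdown, 1 array lay far from the other 3 in 10 of 146 groups (73 named genes in 2 knockdowns), where its gap to the nearest array took up more of the group's range than Dixon's 95% critical value. Chance flags about 1 in 20 groups, and genes on the same arrays are not independent. In Etv5 knockdown 6 of the 10 fell on replicate 3. It read 1676 for Etv5 against 898 to 912 on the other 3 arrays, 899 for Bcl6b against 608 to 620, 4102 for Nefm against 2923 to 2992, 174 for Plvap against 80.8 to 87.2, and 1917 for Pmaip1 against 1512 to 1580. For Irf9 it was the low array, at 1043 against 1188 to 1202. Etv5 knockdown replicate 4 read 342 for Tap1, against 275 to 283 on the other 3.

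In Pou3f1 knockdown the arrays set apart were replicate 1 for Ifit1 (1615, against 1194 to 1225), replicate 2 for Krt18 (35.6, against 24.9 to 25) and replicate 4 for Asb9 (633, against 703 to 706).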

How the results depend on the processing

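No gene called here changed direction under any alternative. This says little, since several alternatives keep the same difference of group means. Nor can leaving out 1 array reverse a gene whose groups do not overlap, as in 317 of the 324 called genes. Against 324 called genes (213 higher, 111 lower, 63 of the higher on interferon lists, 112 on any list), the fit of all 16 arrays called 158 (101 and 57), the fit of 15 arrays without Bcl6b knockdown replicate 1 called 707 (417 and 290), and array weights gave 717 (408 and 309). Requiring a log2 difference beyond 0.2 left 72 (51 and 21), with 35 interferon genes and 50 listed genes. Without the filter on dim genes 65 were lower. With arrays beyond each other in place of the test, 178 listed genes differed. The cause of these shifts was not tested. With 1 array left out, 156 to 366 genes were called, 109 to 228 higher and 47 to 138 lower, with 53 to 63 interferon genes and 83 to 116 listed genes. The number lower was 68 without Pou3f1 knockdown replicate 1. The samples were not taken as paired by number. With the replicate block, 308 were called (192 and 116), 60 of them interferon genes. A response element 1 letter shorter was in 25.6% of higher, 7.79% of lower and 8.38% of all windows, and the full one before the start site in 15.1%, 1.3% and 3.08%. Before the start site the ETS letters were in 1.74% of higher, 1.3% of lower and 6.95% of all windows, and the octamer in 0.581%, 2.6% and 1.44%. Of 73 named genes, 32 passed in every setting and 24 lost the call without at least 1 array. Probe sets near the median of an array give differences of uncertain size.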

Other observations

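Single genes outside the lists gave further differences, which were chosen after their values were seen. Insyn2a, an inhibitory synaptic factor gene, read 134, 203, 126 and 169 in Etv5 knockdown, against 67.7, 81.7, 106 and 71.9 in Pou3f1 knockdown and 75.1 to 197 on control arrays, so that the control arrays overlapped both knockdowns. The log2 difference was 0.94 ± 0.16 (adjusted p = 0.0095). Mid1, which encodes a Trim-family ubiquitin ligase, read 83.6, 131, 75.1 and 110 in Etv5 knockdown, against 48.6, 79.7, 45.3 and 46.2 in Pou3f1 knockdown and 51.5 to 110 on control arrays, at 0.86 ± 0.20 (adjusted p = 0.0434), with overlap between the groups.

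Camk2n1, an inhibitor gene of the kinase CaMKII, read 284, 282, 244 and 256 in Etv5 knockdown, 193, 214, 189 and 167 in Pou3f1 knockdown and 94.1 to 140 on control arrays. Both knockdowns were above control, and Etv5 knockdown was above Pou3f1 knockdown by 0.48 ± 0.08 (adjusted p = 0.00964). Strip2 lay on both sides of control, with 24.6, 23.3, 23.2 and 20.8 in Etv5 knockdown, 37.6, 45.0, 42.7 and 52.0 in Pou3f1 knockdown and 28.4 to 34.9 on control arrays, at -0.91 ± 0.10 (adjusted p = 5.30e-04). Got1, an aspartate aminotransferase gene, was lowest on the Pou3f1 knockdown arrays among these 3 groups, with 810, 777, 789 and 822 in Etv5 knockdown, 567, 586, 628 and 543 in Pou3f1 knockdown and 824 to 883 on control arrays, at 0.46 ± 0.05 (adjusted p = 7.06e-04). Atp6v1a, a subunit gene of the vacuolar proton pump, was lowest on the Etv5 knockdown arrays among these 3 groups, with 2751, 2865, 2925 and 2498 in Etv5 knockdown, 3551, 3696, 3572 and 3711 in Pou3f1 knockdown and 3567 to 3821 on control arrays, at -0.40 ± 0.05 (adjusted p = 9.19e-04).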
